A study of Mus musculus with 17 samples.

Results

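The guidance genes described here are the mouse semaphorins of classes 3 to 7, the plexins, Flrt1 to Flrt3, Slit1 to Slit3, Robo1 to Robo4, Unc5a to Unc5d and the netrins Ntn1 to Ntn5, taken by gene symbol from whole-transcript expression arrays. 47 of the 19937 genes tested met this rule. It used no expression difference, but the guidance genes were chosen with earlier results of these data known. The 47 were 13 membrane semaphorins, 7 secreted class 3 semaphorins, 9 plexins, 3 Flrt genes, 3 Slits, 4 Robos, 4 netrins and 4 Unc5 genes. The cells came from the aorta-gonad-mesonephros (AGM) region of pooled mouse embryos at E11.5 (embryonic day), the site where the first blood stem cells leave the aortic wall, and all were gated as CD31+ CD45- Ter119-, which keeps endothelial and emerging blood cells and leaves out mature blood and red cells. In the first setting, CD31+ cells were kept for 2 h on OP9, a bone marrow stromal line of the mouse, that carried the Notch ligand Jag1 or the Notch ligand Dll4, in medium with haematopoietic and vascular cytokines, and were then sorted again on Kit. This gave Kit+J (3 arrays) and Kit-J (2 arrays) after OP9-Jag1, and Kit+D (3 arrays) and Kit-D (3 arrays) after OP9-Dll4. In the other setting, Kit+ and Kit- cells (3 arrays each) were sorted fresh from the same region. The embryos are given no genotype in the labels, and each array is a pool of embryos. The study asked how exposure to Jag1, as against Dll4, alters the endothelial and haematopoietic programmes of these cells.

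Semaphorins are ligands, secreted in class 3 and held in the membrane in classes 4 to 7, and signal mainly through plexins, whose cytoplasmic part inactivates small GTPases and loosens adhesion. Class 3 members mostly need a neuropilin as co-receptor, with Sema3e binding Plxnd1 directly as an exception. Slits bind Robo receptors, netrins bind Dcc, neogenin and Unc5 receptors, and Flrt proteins are cell surface adhesion molecules that bind Unc5 receptors and latrophilins. First studied in growing axons, these families also steer vessels: Plxnd1 keeps sprouts out of tissue that secretes Sema3e, Robo4 is an endothelial receptor linked to vessel stability, and Unc5b is a receptor of endothelial tip cells and arteries.

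All values below are log2 signals on the scale the authors deposited, and fold changes are log2 differences with limma's standard error. A gene was called changed when its p-value from limma, adjusted by Benjamini-Hochberg over all 19937 genes, was below 0.05. The 6 fresh arrays came from an earlier array series, so the 2 h of culture and the change of array series cannot be told apart in any comparison of cultured with fresh cells. For both Kit-J arrays, Kit-D replicate 3 and Kit+D replicate 3, a description line names the opposite Kit population, while title, source and a second description line name the group used here. Kit itself, the sorting marker, measured 9.02 to 9.93 for Kit+J arrays, 8.51 to 8.99 for Kit+D arrays, 8.50 and 9.08 in Kit-J, 7.05 to 8.02 for Kit-D arrays, 9.44 to 9.55 for Kit+ arrays and 8.13 to 8.29 for Kit- arrays. Both Kit-J arrays thus lay above every Kit- and Kit-D array, with replicate 1 within the range of the Kit+J and Kit+D arrays and replicate 2 just below it. Pecam1, which encodes the sorted CD31, was between 7.60 and 10.25 on all arrays, and Ptprc, which encodes the gated-out CD45, was between 4.16 and 9.20. In pooled bulk RNA, fewer cells of a type and less RNA per cell cannot be told apart. Array medians ran between 5.22 and 5.38.

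Markers of the cell types that the gate could hold also differed between the groups. The mean of 8 endothelial markers was 5.52 to 5.86 for Kit+J arrays, 5.83 to 7.22 for Kit+D arrays and 5.70 to 6.13 for Kit+ arrays. It was 6.44 to 6.88 for Kit-J arrays, 9.22 to 9.70 for Kit-D arrays and 8.84 to 9.12 for Kit- arrays. On this list Kit-J thus lay within the range of Kit+D, above all Kit+J and Kit+ arrays and below all Kit-D and Kit- arrays. Kdr, which encodes the VEGF receptor of endothelium, measured 5.11 and 6.38 in Kit-J, against 9.83 to 10.26 for Kit-D arrays and 9.62 to 9.83 for Kit- arrays. The mean of 6 germ cell markers, which belong to cells that carry both CD31 and Kit, was 9.31 to 9.85 for Kit+J arrays, 6.04 to 9.92 for Kit+D arrays, 9.02 to 9.46 for Kit-J arrays, 5.50 to 7.05 for Kit-D arrays, 9.11 to 9.48 for Kit+ arrays and 8.12 to 8.57 for Kit- arrays. 5 erythroid markers averaged between 5.95 and 6.30 in Kit-J, against a range of 6.91 to 8.71 for Kit-D arrays and of 7.40 to 8.30 for Kit- arrays. The mean of 10 stromal markers, which OP9 cells would carry too, was 5.20 to 5.61 for Kit-J arrays, 5.80 to 6.97 for Kit-D arrays and 6.03 to 6.31 for Kit- arrays. 3 of the OP9-Dll4 arrays stood apart on such markers. On Kit+D replicate 1 the germ cell mean was 6.04, against 9.30 and 9.92 on the other Kit+D arrays. On Kit+D replicate 3 and Kit-D replicate 3, Mgp (9.75 and 10.55) and Acta2 (9.38 and 9.92) were above all other arrays. Both are of the stromal list, which did not move as a whole. Lum, Dcn and Pdgfra were lower on Kit-D replicate 3 (2.99, 4.43 and 6.35) than on Kit-D replicate 2 (4.68, 6.41 and 7.52). The stromal means of these Kit-D arrays were 6.97 and 6.70. 10 macrophage and myeloid markers averaged 7.52 on Kit+D replicate 1, against 4.71 and 4.44 on replicates 2 and 3. On Kit-D replicate 1 they averaged 6.24, against 4.62 and 4.60 on replicates 2 and 3. 6 haematopoietic markers averaged 7.06 on Kit-D replicate 1, against 5.54 and 5.47 on the other Kit-D arrays. Kit-D replicate 1 was kept in the fits below that left out the 3 arrays. The part of these markers in the results below was not tested.

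The guidance genes with the widest range of group means had a high signal in Kit- and Kit-D cells. Their signal was low in Kit-J cells and all 3 Kit+ groups. This split of the groups was taken from earlier results of these data, so the counts here describe it and do not test it. For 11 of the 47 genes every one of the 6 Kit- and Kit-D arrays lay above every one of the 11 other arrays, where 2.81% of all genes did so. These were Flrt2, Sema6d, Sema6a, Sema4c, Plxnd1, Plxna2, Plxna4, Plxnb2, Robo1, Robo4 and Unc5b. Of them, Plxna2, Sema4c and Unc5b were not called lower in Kit-J against Kit- cells. The gap between the lowest Kit- or Kit-D array and the highest of the others was 2.43 for Flrt2, 2.20 for Sema6d, 1.60 for Robo1, 1.47 for Plxnd1 and 1.19 for Sema6a, and 0.55 or less for the other 6. The opposite order, all 6 arrays below the 11 others, was met by Sema4b alone of the 47 genes and by 0.632% of all genes.

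**Figure D1:**
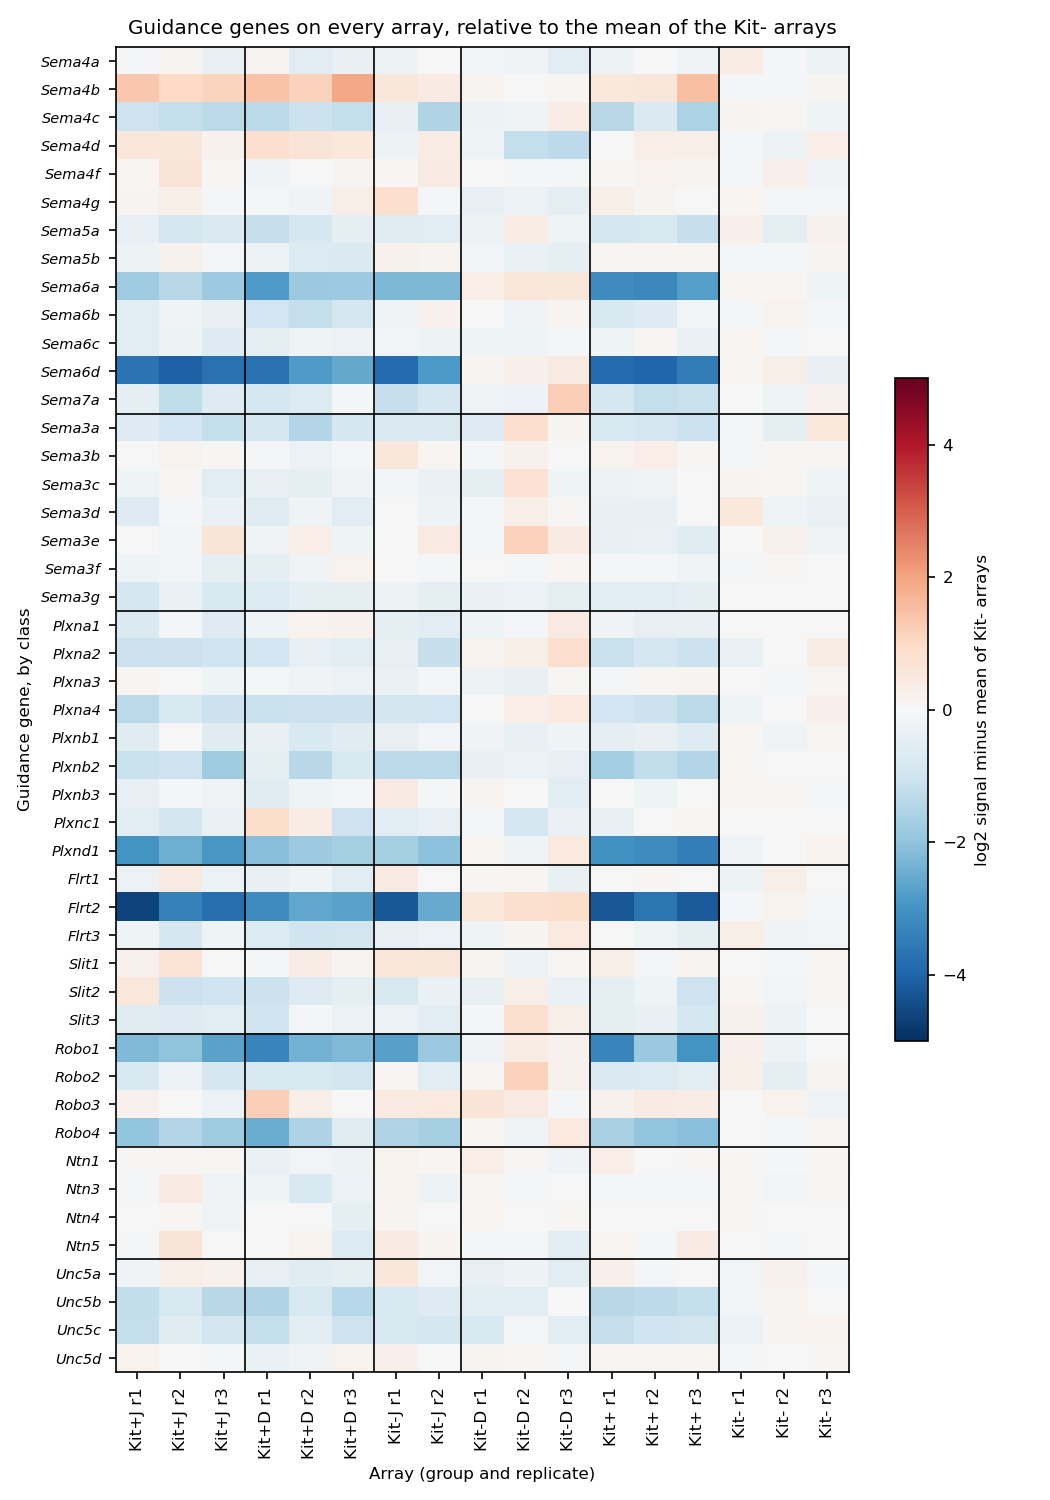
Each of the 47 guidance genes (rows, grouped by class) on each of the 17 arrays (columns, named by group and replicate), coloured by log2 signal minus the mean of the 3 Kit- arrays. Flrt2, Sema6d, Sema6a, Plxnd1 and Robo1 are blue (lower) in the Kit-J columns and in every Kit+J, Kit+D and Kit+ column, and near 0 in the Kit-D columns.

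In Kit-J against Kit- cells, 8 of the 47 genes were called lower, with 1.89% of all genes called lower, and none was called higher. They were the membrane ligands Flrt2, Sema6d and Sema6a, the plexins Plxnd1, Plxnb2 and Plxna4, and the Slit receptors Robo1 and Robo4. In Kit-J against Kit-D cells, the same 8 and Plxna2 were called lower (9 of 47, with 6.07% of all genes) and Sema4g was called higher (1 of 47, with 3.3% of all genes). Between fresh Kit+ and Kit- cells 13 were called lower, with 2.67% of all genes, and none higher: the 8, Plxna2, Unc5b, Unc5c, Sema4c and Sema5a. In Kit+D against Kit-D cells 16 were called lower, with 6.62% of all genes, and Sema4b and Sema4d were called higher, with 6.5% of all genes. Without the 3 OP9-Dll4 arrays that stood apart, which leaves 1 Kit+D array whose spread is taken from the other groups, 8 of those 18 calls held in that comparison, all lower, and Plxnb2 was called lower as well. The 10 lost were Flrt3, Plxna2, Robo2, Sema3a, Sema4b, Sema4c, Sema4d, Sema5a, Slit3 and Unc5b (adjusted p between 0.0659 and 0.572). No guidance gene was called in Kit-D against Kit- cells, where 0.171% of all genes were called. There 3 of the 47 had an unadjusted p under 0.05, as had 2238 of all 19937 genes. The median log2 fold change was -0.23 over the 47 genes and 0.09 over all genes in Kit-J against Kit-, and -0.06 and 0.11 in Kit-J against Kit-D. It was -0.25 and 0.06 in Kit+ against Kit-, and -0.35 and 0.05 in Kit+D against Kit-D. Kit-J and Kit+ cells were set against the same Kit- arrays, and Kit-J and Kit+D cells against the same Kit-D arrays, so these lists are not independent of each other.

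Flrt2 and Sema6d, both membrane ligands, had the largest log2 changes of the 47 genes in each of these 4 comparisons. Flrt2, a leucine-rich repeat adhesion protein that repels cells bearing Unc5 receptors, measured 4.61, 5.86 and 5.48 in Kit+J, 6.10, 6.65 and 6.58 in Kit+D, 5.0 and 6.72 in Kit-J, 9.77, 10.05 and 10.12 in Kit-D, 4.97, 5.61 and 5.07 in Kit+ and 9.16, 9.44 and 9.15 in Kit-. No Kit-J array came within 2.4 log2 units of a Kit- or Kit-D array, and Kit-J replicate 1 lay at the level of the fresh Kit+ arrays. Flrt2 was 10.5-fold lower in Kit-J than in Kit- cells, a log2 change of -3.39 (SE 0.42, adjusted p = 0.000563), and 17.4-fold lower than in Kit-D cells, a log2 change of -4.12 (SE 0.42, adjusted p = 5.03e-05). Without Kit-J replicate 1 these log2 changes were -2.53 and -3.26 and both stayed called. Flrt2 also fell by 4.04 in fresh Kit+ against Kit- cells (SE 0.37, adjusted p = 1.55e-05) and fell by 3.54 in Kit+D against Kit-D cells (SE 0.37, adjusted p = 3.88e-05).

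Sema6d, a transmembrane semaphorin known as a ligand of Plxna1 from the chick heart, measured 5.74, 5.33 and 5.68 in Kit+J, 5.68, 6.59 and 6.86 in Kit+D, 5.55 and 6.53 in Kit-J, 9.57, 9.67 and 9.88 in Kit-D, 5.57, 5.44 and 5.91 in Kit+ and 9.50, 9.69 and 9.06 in Kit-. The Kit- and Kit-D arrays all lay above 9.0 and the other 11 arrays all below 6.9. Its log2 change was -3.38 (SE 0.33, adjusted p = 8.20e-05) in Kit-J against Kit- cells and -3.67 (SE 0.33, adjusted p = 1.84e-05) in Kit-J against Kit-D cells. It was -3.78 (SE 0.30, adjusted p = 3.28e-06) in fresh Kit+ against Kit- cells and -3.33 (SE 0.30, adjusted p = 1.53e-05) in Kit+D against Kit-D cells. All 4 calls held in every alternative fit and with each array left out in turn.

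Sema6a, a membrane ligand of Plxna2 and Plxna4, measured 6.55, 6.93 and 6.50 in Kit+J, 5.48, 6.47 and 6.52 in Kit+D, 6.08 and 6.08 in Kit-J, 8.67, 8.93 and 8.91 in Kit-D, 5.18, 5.12 and 5.59 in Kit+ and 8.44, 8.43 and 8.12 in Kit-. The Kit-J arrays agreed to within 0.01, and lay above the fresh Kit+ arrays and below all Kit- and Kit-D arrays. The log2 change was -2.25 (SE 0.27, adjusted p = 0.000426) in Kit-J against Kit-, -2.76 (SE 0.27, adjusted p = 3.38e-05) in Kit-J against Kit-D and -3.03 (SE 0.24, adjusted p = 3.28e-06) in Kit+ against Kit-. In Kit+D against Kit-D cells it was -2.68 (SE 0.24, adjusted p = 1.53e-05), and these 4 calls, too, held in every alternative fit and with each array left out.

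**Figure D2:**
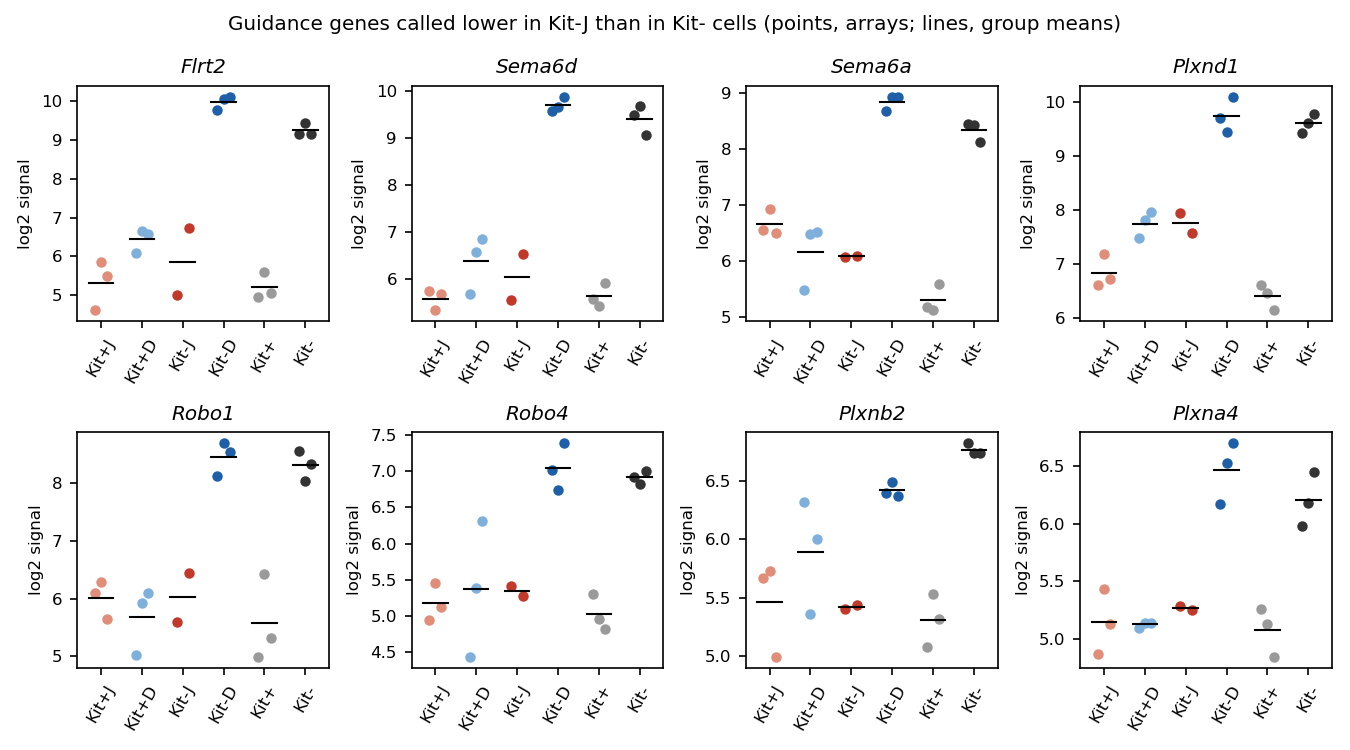
Log2 signal (vertical axes, 1 panel per gene, each with its own scale) of the 8 guidance genes called lower in Kit-J than in Kit- cells, by group (horizontal axes). Points are arrays and lines are group means. In every panel the Kit-D and Kit- points lie above all points of the other 4 groups.

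Among the receptors, Plxnd1, the semaphorin receptor of endothelium, measured 6.60, 7.17 and 6.71 in Kit+J, 7.47, 7.81 and 7.95 in Kit+D, 7.94 and 7.58 in Kit-J, 9.71, 9.45 and 10.10 in Kit-D, 6.60, 6.46 and 6.13 in Kit+ and 9.42, 9.62 and 9.79 in Kit-. Kit-J and Kit+D arrays overlapped each other and lay between the fresh Kit+ arrays and the Kit- and Kit-D arrays. The log2 change was -1.85 (SE 0.24, adjusted p = 0.000648) in Kit-J against Kit-, -2.0 (SE 0.24, adjusted p = 0.000144) in Kit-J against Kit-D, -3.21 (SE 0.21, adjusted p = 7.01e-07) in Kit+ against Kit- and -2.01 (SE 0.21, adjusted p = 3.79e-05) in Kit+D against Kit-D. Plxnb2, a receptor of class 4 semaphorins, measured 5.67, 5.73 and 4.99 in Kit+J, 6.32, 5.36 and 6.0 in Kit+D, 5.40 and 5.44 in Kit-J, 6.40, 6.49 and 6.37 in Kit-D, 5.08, 5.53 and 5.32 in Kit+ and 6.82, 6.74 and 6.74 in Kit-. The 2 Kit-J values were nearly equal and 0.93 or more below the lowest Kit-D value. Its log2 change was -1.35 (SE 0.25, adjusted p = 0.0102) against Kit- and -1.0 (SE 0.25, adjusted p = 0.0251) against Kit-D. The call against Kit- was lost without Kit-J replicate 1 (adjusted p = 0.112) and that against Kit-D without either Kit-J array or any Kit-D array (adjusted p between 0.0527 and 0.171), while the change itself stayed at -0.96 or lower. Plxnb2 fell by 1.46 in fresh Kit+ against Kit- cells (SE 0.23, adjusted p = 0.00127), and was not called in Kit+D against Kit-D cells, at -0.52 (adjusted p = 0.145). In that comparison its nearest Kit+D array to Kit-D was replicate 1, at 6.32. It was called without that array (-0.74, adjusted p = 0.0421), with array weights (-0.77, adjusted p = 0.0195) and without the 3 OP9-Dll4 arrays that stood apart (-1.08, adjusted p = 0.0442).

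Plxna4 and Plxna2, the receptors of Sema6a, moved the same way at a smaller size. Plxna4 measured 4.87, 5.43 and 5.13 in Kit+J, 5.09, 5.14 and 5.14 in Kit+D, 5.28 and 5.24 in Kit-J, 6.17, 6.53 and 6.70 in Kit-D, 5.26, 5.13 and 4.84 in Kit+ and 5.98, 6.18 and 6.45 in Kit-. The groups formed a high set of 6 arrays and a low set of 11 that did not overlap. Plxna4 changed by -0.94 (SE 0.20, adjusted p = 0.0239) in Kit-J against Kit- cells, a call lost without either Kit-J array or without Kit- replicate 2 or 3 (adjusted p between 0.063 and 0.154). The change was -1.20 (SE 0.20, adjusted p = 0.00207) against Kit-D, -1.13 (SE 0.18, adjusted p = 0.00155) in Kit+ against Kit- and -1.34 (SE 0.18, adjusted p = 0.000269) in Kit+D against Kit-D, and these 3 calls held with each array left out. Plxna2 measured 5.15, 5.17 and 5.24 in Kit+J, 5.29, 5.83 and 5.70 in Kit+D, 5.83 and 5.08 in Kit-J, 6.42, 6.52 and 7.07 in Kit-D, 5.13, 5.37 and 5.14 in Kit+ and 5.90, 6.19 and 6.59 in Kit-. One Kit-J array, at 5.83, lay just under the lowest Kit- array at 5.90. Plxna2 fell by 1.22 in Kit-J against Kit-D cells (SE 0.26, adjusted p = 0.0101) and changed by -0.84 without Kit-J replicate 2 (adjusted p = 0.0716), and was not called against Kit-, at -0.77 (adjusted p = 0.184). It fell by 1.01 in Kit+ against Kit- (SE 0.23, adjusted p = 0.025), a call lost without Kit+ replicate 1 or 3 or Kit- replicate 2 or 3 (adjusted p between 0.0716 and 0.129), and fell by 1.06 in Kit+D against Kit-D cells (SE 0.23, adjusted p = 0.00777), or by 0.64 without the 3 OP9-Dll4 arrays that stood apart (adjusted p = 0.258). The other 5 plexins, Plxna1, Plxna3, Plxnb1, Plxnb3 and Plxnc1, were called in no comparison, with log2 fold changes between -0.68 and 0.52 and a smallest adjusted p of 0.125. Without Kit+D replicate 3, Plxnc1 was called at 1.07 in Kit+D against Kit-D (adjusted p = 0.0117) and at -1.23 in Kit+J against Kit+D (adjusted p = 0.0121).

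Of the Slit receptors, Robo1 measured 6.09, 6.28 and 5.64 in Kit+J, 5.02, 5.93 and 6.09 in Kit+D, 5.60 and 6.45 in Kit-J, 8.12, 8.69 and 8.54 in Kit-D, 4.99, 6.43 and 5.32 in Kit+ and 8.55, 8.04 and 8.33 in Kit-. All 6 Kit- and Kit-D arrays were above 8.0 and all others below 6.5. The log2 change of Robo1 was -2.28 (SE 0.41, adjusted p = 0.0072) in Kit-J against Kit-, -2.43 (SE 0.41, adjusted p = 0.00199) in Kit-J against Kit-D, -2.73 (SE 0.36, adjusted p = 0.000316) in Kit+ against Kit- and -2.77 (SE 0.36, adjusted p = 0.000216) in Kit+D against Kit-D. Both Kit-J calls were lost without Kit-J replicate 1, at -1.86 against Kit- (adjusted p = 0.148) and -2.0 against Kit-D (adjusted p = 0.0517). Robo4, the receptor found mainly in endothelium, measured 4.95, 5.46 and 5.13 in Kit+J, 4.44, 5.39 and 6.31 in Kit+D, 5.42 and 5.27 in Kit-J, 7.01, 6.74 and 7.39 in Kit-D, 5.3, 4.96 and 4.82 in Kit+ and 6.92, 6.82 and 7.01 in Kit-. Kit+D replicate 3, at 6.31, was the nearest of the low arrays to the high ones. Robo4 changed by -1.70 (SE 0.37, adjusted p = 0.0125) in Kit-J against Kit-D cells, a call lost without Kit-J replicate 1 or Kit-D replicate 3 (adjusted p = 0.0839 and 0.0524), by -1.89 (SE 0.33, adjusted p = 0.00378) in Kit+ against Kit- and by -1.67 (SE 0.33, adjusted p = 0.00487) in Kit+D against Kit-D. In Kit-J against Kit- cells it changed by -1.57 (SE 0.37, adjusted p = 0.0414), and 12 of the 17 fits that left out 1 array missed the threshold (adjusted p between 0.0511 and 0.210): those without any Kit-J, Kit- or fresh Kit+ array, Kit-D replicate 1, Kit+D replicate 2, or Kit+J replicate 1 or 3. Robo2, the neighbour of Robo1 on chromosome 16, measured 4.61, 5.08 and 4.55 in Kit+J, 4.58, 4.60 and 4.48 in Kit+D, 5.46 and 4.84 in Kit-J, 5.47, 6.55 and 5.60 in Kit-D, 4.65, 4.70 and 4.85 in Kit+ and 5.67, 4.95 and 5.53 in Kit-. Only Kit+D against Kit-D was called for Robo2, at -1.32 (SE 0.27, adjusted p = 0.00514), with all 3 Kit+D arrays below all 3 Kit-D arrays. Robo3, which lies beside Robo4 on chromosome 9, was called in no comparison, with log2 fold changes between -0.55 and 0.46.

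In Kit-J against Kit- cells, 6 of the 8 endothelial markers were called lower with a median log2 change of -2.15, and 7 of the 8 were lower in Kit-J against Kit-D cells with a median of -2.66. 7 of the 8 were also lower in fresh Kit+ against Kit- cells (median -2.85), and all 8 in Kit+D against Kit-D cells (median -2.82). 5 of the 6 germ cell genes rose in Kit-J relative to Kit-D cells (median 3.41), and none was called against Kit-. 1 of 10 stromal markers was lower in Kit-J against Kit- cells and 3 of 10 in Kit-J against Kit-D cells. 2 of the 5 erythroid markers were lower in Kit-J against Kit- cells and 3 in Kit-J against Kit-D cells. Whether the guidance genes follow the share of endothelial cells was not tested.

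The promoters of the genes called in the Kit-J comparisons are of interest because OP9-Jag1 and OP9-Dll4 differ in a ligand of Notch, whose nuclear partner RBPJ binds a core of TGGGAA. RefSeq windows of 300 bases on GRCm38.p6, from 250 before to 50 after the annotated start, were matched by symbol for 8 of the 10 genes. The core, searched on both strands, stood in the windows of 2 of the 8, Sema6d and Plxnb2 (25%), against 28.3% of all 27025 genes with a window and 28.9% of the 38 guidance genes with one. The share was thus close to that of all genes. Sema6d and Plxnb2 each have a further annotated start whose window lacks it. Shown are the windows of the pair with the core, in capitals as TGGGAA or its reverse complement, and those of Flrt2 and Plxnd1, 2 of the most changed genes, which lack it. They are written 5′ to 3′ on the strand of the gene.
Sema6d, chr2:124089719-124090018, plus strand, with the core at positions -249 and -79 from the start: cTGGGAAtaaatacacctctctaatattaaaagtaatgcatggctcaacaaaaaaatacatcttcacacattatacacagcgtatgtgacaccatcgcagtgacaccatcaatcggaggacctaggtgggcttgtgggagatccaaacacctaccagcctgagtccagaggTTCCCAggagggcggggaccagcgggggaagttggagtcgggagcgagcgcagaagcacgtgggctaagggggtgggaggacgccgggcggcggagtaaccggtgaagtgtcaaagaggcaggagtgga
Plxnb2, chr15:89180739-89181038, minus strand, with the core at position -91: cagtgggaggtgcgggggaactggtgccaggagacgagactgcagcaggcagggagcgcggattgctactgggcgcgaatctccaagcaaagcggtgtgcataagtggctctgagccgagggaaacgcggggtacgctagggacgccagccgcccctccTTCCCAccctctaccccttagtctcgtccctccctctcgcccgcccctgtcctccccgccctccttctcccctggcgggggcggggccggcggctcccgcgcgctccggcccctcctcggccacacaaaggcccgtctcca
Flrt2, chr12:95691976-95692275, plus strand, without the core: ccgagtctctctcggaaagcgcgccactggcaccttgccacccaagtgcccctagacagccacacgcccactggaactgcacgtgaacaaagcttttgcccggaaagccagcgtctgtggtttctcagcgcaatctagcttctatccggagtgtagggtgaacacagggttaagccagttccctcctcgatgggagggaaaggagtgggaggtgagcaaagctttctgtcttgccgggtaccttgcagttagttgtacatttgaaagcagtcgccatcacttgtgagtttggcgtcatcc
Plxnd1, chr6:115994956-115995255, minus strand, without the core: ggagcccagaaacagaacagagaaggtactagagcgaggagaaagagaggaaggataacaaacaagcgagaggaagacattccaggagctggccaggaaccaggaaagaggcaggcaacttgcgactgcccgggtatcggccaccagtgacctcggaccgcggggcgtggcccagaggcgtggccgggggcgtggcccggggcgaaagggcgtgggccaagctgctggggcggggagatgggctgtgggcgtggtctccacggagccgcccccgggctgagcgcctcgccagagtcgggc
A match marks letters only, and neither binding nor its absence was measured.

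Whether the difference between the stromas depended on the Kit population was tested directly, as the Kit-J minus Kit-D change less the Kit+J minus Kit+D change. 5 of the 47 guidance genes were called, all with a lower value (more negative in Kit- cells), with 1.36% of all genes called lower: Sema6a, Flrt2, Sema6d, Robo1 and Plxna4. In Kit+ cells the stromas differed for Sema6a by 0.50 (adjusted p = 0.268), against -2.76 in Kit- cells, and the test of the difference gave -3.26 (SE 0.36, adjusted p = 0.00154). For Flrt2 the test gave -3.0 (SE 0.56, adjusted p = 0.0179) and was lost without Kit-J replicate 1 (-2.14, adjusted p = 0.0755) or Kit-D replicate 3 (adjusted p = 0.0502). For Sema6d it gave -2.88 (SE 0.44, adjusted p = 0.00763), kept with each array left out. For Robo1 it gave -2.75 (SE 0.54, adjusted p = 0.0221), and the call was lost without Kit-J replicate 1, Kit-D replicate 2 or Kit-D replicate 3 (adjusted p between 0.0547 and 0.124). For Plxna4 it gave -1.22 (SE 0.27, adjusted p = 0.0361), with 8 of the 17 fits that left out 1 array above the threshold (adjusted p between 0.0503 and 0.120), those without either Kit-J array, Kit-D replicate 2 or 3, Kit+J replicate 2 or 3, Kit+D replicate 2 or Kit+ replicate 2. With the replicate number as a fixed block it was -1.20 and not called (adjusted p = 0.0552). Plxnd1 was lower after OP9-Jag1 in both populations, and its difference of -1.08 (adjusted p = 0.0959) was not called. Without the 3 OP9-Dll4 arrays that stood apart, Sema6a (-2.91, adjusted p = 0.00424) and Sema6d (-2.58, adjusted p = 0.0304) were called and Flrt2 (-2.72), Robo1 (-2.46) and Plxna4 (-1.09) were not (adjusted p between 0.101 and 0.162). Of the 8 endothelial markers, 4 were called lower in this test, with a median of -1.86.

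The change with OP9-Jag1 culture, Kit-J minus Kit- less Kit+J minus Kit+, was called for 5 guidance genes, all lower, with 0.557% of all genes called lower. Sema6a gave -3.62 (SE 0.36, adjusted p = 0.000437), as it was 1.36 higher in Kit+J than in Kit+ cells and fell by 2.25 in Kit-J against Kit-. Flrt2 gave -3.50 (SE 0.56, adjusted p = 0.0117), Sema6d -3.32 (SE 0.44, adjusted p = 0.00343) and Plxnd1 -2.28 (SE 0.32, adjusted p = 0.00417). Those 4 calls held with each array left out. Robo1 gave -2.71 (SE 0.54, adjusted p = 0.0366), a call lost in 12 of the 17 fits that left out 1 array (adjusted p between 0.0501 and 0.237): those without any Kit+J or Kit- array, Kit-J replicate 1, Kit+ replicate 1 or 3, Kit-D replicate 2 or 3, or Kit+D replicate 2. 2 of the 8 endothelial markers were called in this test (median -1.84).

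**Figure D3:**
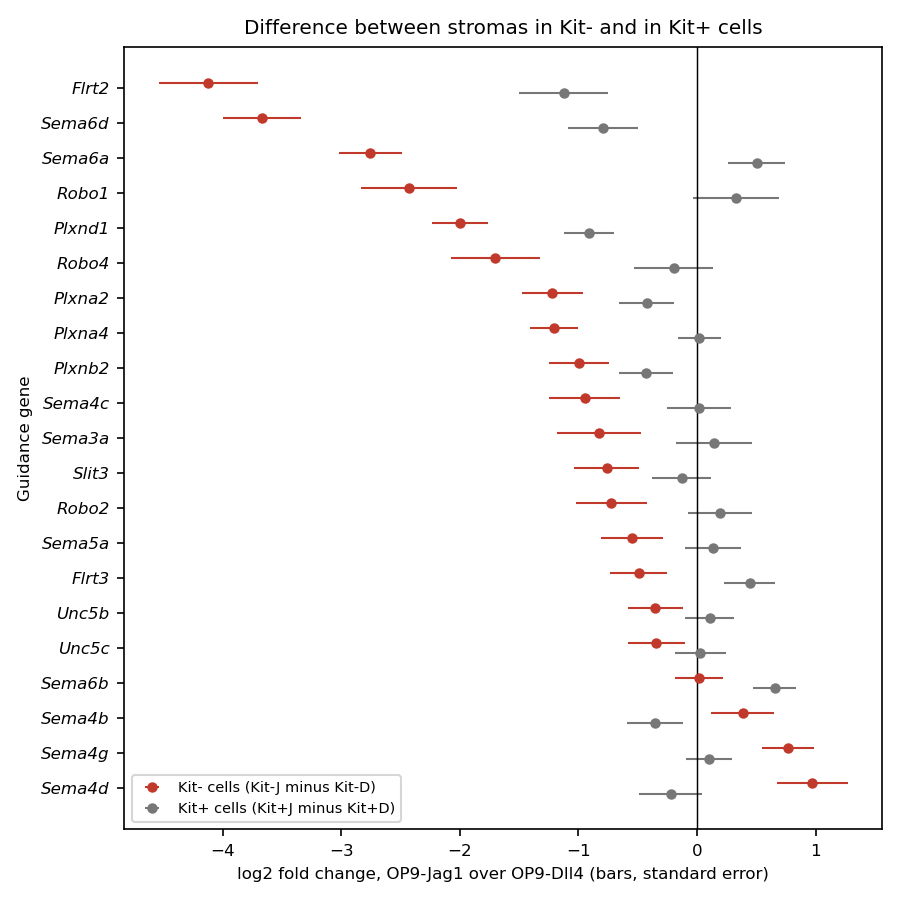
Log2 fold change after OP9-Jag1 over OP9-Dll4 (horizontal axis) in Kit- cells (red, Kit-J minus Kit-D) and in Kit+ cells (grey, Kit+J minus Kit+D) for the 21 guidance genes called in at least 1 comparison (rows). Points are estimates and bars standard errors. The red points of Flrt2, Sema6d, Sema6a, Robo1 and Plxna4 lie to the left of their grey points, with differences (red minus grey) of -3.0, -2.88, -3.26, -2.75 and -1.22.

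Within the Kit+ gate Plxnd1 was the only guidance gene called between stromas or between cultured and fresh cells. None was called in Kit+J against Kit+ cells, where 0.0201% of all genes were called. In that comparison 3 of the 47 had an unadjusted p under 0.05, as had 1330 of all 19937 genes. Sema6a came nearest: each Kit+J array was above each fresh Kit+ array, by 1.36 (SE 0.24, adjusted p = 0.0835), and without Kit+D replicate 1 in the fit its adjusted p was 0.00763. In Kit+D against Kit+ cells Plxnd1 alone was called higher (1 of 47, with 1.04% of all genes called higher), at 1.35 (SE 0.21, adjusted p = 0.00894). There 13 of the 47 had an unadjusted p under 0.05, as had 3386 of all 19937 genes. The Plxnd1 call held with each array left out and was lost when only those 2 groups were fitted (adjusted p = 0.0901). Flrt2 was higher on every Kit+D array than on every fresh Kit+ array, by 1.23, and was not called (adjusted p = 0.111). It passed the threshold without Kit-J replicate 1 or without Kit-J replicate 2 (adjusted p = 0.0427 for each), arrays that enter only the estimate of spread. Sema6a, also higher in Kit+D than in Kit+ cells but not called, at 0.86 (adjusted p = 0.0848), was called at 1.2 without Kit+D replicate 1 (adjusted p = 0.00822). Sema5b, a transmembrane semaphorin, was at -0.63 (adjusted p = 0.0577) in the same comparison and was called without Kit+D replicate 1 (-0.77, adjusted p = 0.0237) or Kit+J replicate 2 (adjusted p = 0.0369). Plxnd1 was also the only guidance gene called in Kit+J against Kit+D cells (1 of 47 lower, with 1.68% of all genes), at -0.91 (SE 0.21, adjusted p = 0.038). That call was lost in 7 of the 17 fits that left out 1 array (adjusted p between 0.0533 and 0.115): those without Kit+ replicate 2, Kit+D replicate 2 or 3, Kit+J replicate 1 or 3, Kit- replicate 2 or Kit-D replicate 1. Sema6d (-1.14, adjusted p = 0.0494) and Sema5b (0.67, adjusted p = 0.0466) were called there without Kit+D replicate 1, and Flrt2 (-1.12, adjusted p = 0.0483 for each) without either Kit-J array. Endothelial markers averaged 7.07 and 7.22 in Kit+D replicates 2 and 3, against 5.83 in Kit+D replicate 1, and 1 of the 8 was called higher in Kit+D than in Kit+ cells. Of the 5 erythroid markers 2 were called higher in that comparison.

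In Kit+J against Kit-J cells, the populations sorted on Kit after OP9-Jag1, no guidance gene was called, where 0.0903% of all genes were called. Here 3 of the 47 had an unadjusted p under 0.05, as had 2133 of all 19937 genes. The largest change there was that of Plxnd1, at -0.93 (adjusted p = 0.159). The Kit signal itself overlapped between these groups, at 8.50 and 9.08 on the 2 Kit-J arrays and 9.02 to 9.93 on the Kit+J arrays. A description line of both Kit-J arrays names the opposite Kit population, as given above. Kit+D against Kit-D cells differed for 18 guidance genes, as counted above. The test of whether the change with Kit differs between the stromas is the same contrast as that of the stromas by Kit population, so the 5 genes called in it are those given for that test. Kit-D and Kit+D arrays of the same number deviated together, which the fit behind these 18 calls did not take into account. With the replicate as a block in a fit of those 6 arrays, 14 of the 18 calls held, 2 higher and 12 lower. The 4 lost were Flrt3 (adjusted p = 0.0563), Unc5b (0.0968), Sema5a (0.103) and Sema3a (0.130).

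Sema4b, Sema4d and Sema4g were the class 4 semaphorins called higher in a comparison. They made up 2 of 47 in Kit+D against Kit-D cells, with 6.5% of all genes called higher. In Kit-J against Kit-D cells it was 1 of 47, with 3.3% of all genes. Of the same class, Sema4c was called lower and Sema4a and Sema4f were not called. Sema4b, a transmembrane semaphorin, measured 7.37, 7.02 and 7.15 in Kit+J, 7.47, 7.18 and 7.95 in Kit+D, 6.58 and 6.43 in Kit-J, 6.16, 6.07 and 6.13 in Kit-D, 6.57, 6.59 and 7.54 in Kit+ and 5.93, 5.98 and 6.19 in Kit-. Each of the 11 arrays of the other groups lay above each Kit-D and Kit- array, the nearest pair being 6.43 in Kit-J replicate 2 and 6.19 in Kit- replicate 3. Sema4b was called higher in Kit+D against Kit-D cells alone, at 1.42 (SE 0.24, adjusted p = 0.00141), or 1.07 without the 3 arrays that stood apart (adjusted p = 0.0857). In fresh Kit+ against Kit- cells it differed by 0.87 (adjusted p = 0.0674). Sema4d, which binds Plxnb1 and, on lymphocytes, CD72, measured 7.14, 7.13 and 6.77 in Kit+J, 7.41, 7.19 and 7.10 in Kit+D, 6.31 and 6.96 in Kit-J, 6.35, 5.38 and 5.24 in Kit-D, 6.59, 6.89 and 6.87 in Kit+ and 6.50, 6.29 and 6.91 in Kit-. Kit-D replicates 2 and 3 were the lowest arrays and Kit-D replicate 1 was level with the Kit- arrays. Sema4d was higher in Kit+D against Kit-D cells by 1.58 (SE 0.26, adjusted p = 0.00143), or 1.33 without the same 3 arrays (adjusted p = 0.0659). Without Kit-D replicate 1, Sema4d was called at -1.26 in Kit-D against Kit- (adjusted p = 0.0308) and at 1.32 in Kit-J against Kit-D cells (adjusted p = 0.00595). A dimmer Sema4d probe set, not used here, had a signal of 6.34, 6.64 and 6.73 on the Kit+D arrays. It was 6.03, 6.39 and 6.23 on the Kit-D arrays, so these groups overlapped. Its Kit+J arrays, at 5.82, 6.23 and 5.46, all lay below the highest Kit-D array. On the probe set used, every Kit+J array lay above every Kit-D array. The probe sets thus differ in the size of change and in the order of the groups. Haematopoietic markers moved with the spread of Kit-D: Ptprc measured 8.59 in Kit-D replicate 1, against 4.46 and 4.16 on replicates 2 and 3, and its part in the Sema4d values was not tested. Sema4g, a membrane semaphorin, measured 5.98, 6.12 and 5.80 in Kit+J, 5.75, 5.68 and 6.15 in Kit+D, 6.67 and 5.80 in Kit-J, 5.45, 5.56 and 5.39 in Kit-D, 6.12, 5.96 and 5.86 in Kit+ and 5.95, 5.79 and 5.79 in Kit-. Both Kit-J arrays lay above all Kit-D arrays, and Kit-J replicate 1 stood above all others. Its change of 0.77 (SE 0.22, adjusted p = 0.0403) in Kit-J against Kit-D cells was 0.33 without Kit-J replicate 1 (adjusted p = 0.534), and 9 further fits without 1 array missed the threshold, those without any Kit-D, Kit+ or Kit- array (adjusted p between 0.0501 and 0.115). Without the 3 arrays that stood apart it was 0.73 (adjusted p = 0.0956).

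**Figure D4:**
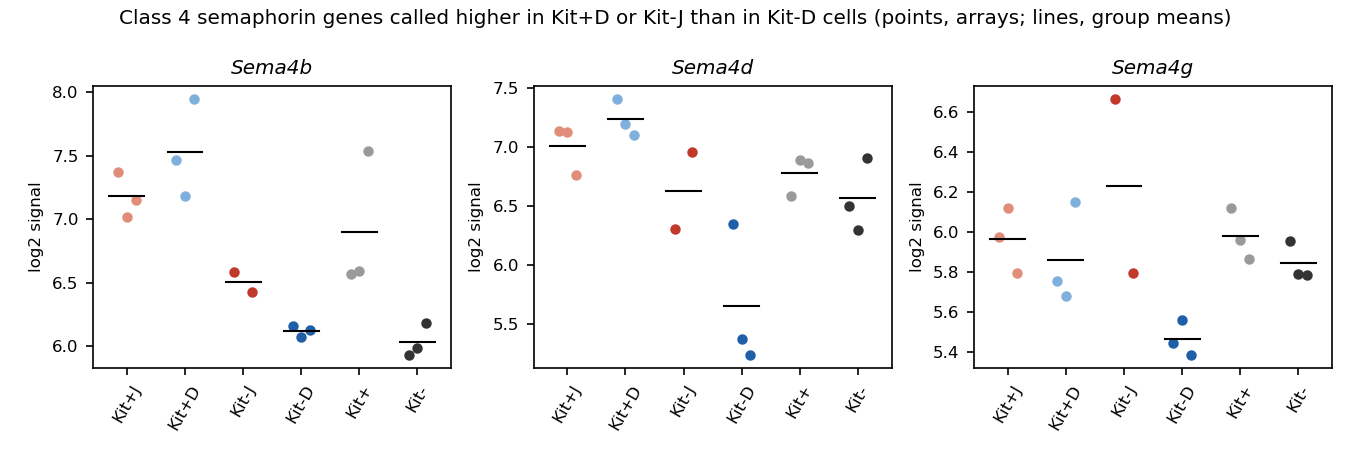
Log2 signal (vertical axes, 1 panel per gene, each with its own scale) of Sema4b, Sema4d and Sema4g by group (horizontal axes). Points are arrays and lines group means. Sema4b is lowest on the 6 Kit-D and Kit- arrays, Sema4d is lowest on Kit-D replicates 2 and 3, and the single high Sema4g point is Kit-J replicate 1 at 6.67.

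The remaining membrane semaphorins that were called fell in Kit+ populations. Sema4c, a ligand of Plxnb2, measured 5.01, 4.85 and 4.68 in Kit+J, 4.69, 4.95 and 4.85 in Kit+D, 5.61 and 4.52 in Kit-J, 5.77, 5.86 and 6.42 in Kit-D, 4.64, 5.3 and 4.43 in Kit+ and 6.19, 6.09 and 5.83 in Kit-. One Kit-J array lay near the Kit- and Kit-D arrays and the other among the low ones, 1.09 apart. Without the higher, replicate 1, Sema4c was called at -1.49 in Kit-J against Kit-D cells (adjusted p = 0.0238). Sema4c fell by 1.24 in Kit+ against Kit- cells (SE 0.27, adjusted p = 0.018), a call lost without Kit+ replicate 1 or 3 or Kit- replicate 1 or 2 (adjusted p between 0.0677 and 0.0987), and fell by 1.19 in Kit+D against Kit-D cells (SE 0.27, adjusted p = 0.00998, or 0.0530 without Kit-D replicate 3). Sema5a, which carries thrombospondin repeats, measured 5.05, 4.59 and 4.77 in Kit+J, 4.32, 4.65 and 5.03 in Kit+D, 4.89 and 4.93 in Kit-J, 5.23, 5.87 and 5.27 in Kit-D, 4.60, 4.70 and 4.34 in Kit+ and 5.73, 5.03 and 5.69 in Kit-. It fell by 0.94 in Kit+ against Kit- cells (SE 0.23, adjusted p = 0.0406), yet 10 of the 17 fits that left out 1 array missed the threshold (adjusted p between 0.0503 and 0.175), those without any Kit+ or Kit-J array, Kit- replicate 1 or 3, Kit-D replicate 3, Kit+D replicate 2 or Kit+J replicate 3. Its fall of 0.79 in Kit+D against Kit-D cells (SE 0.23, adjusted p = 0.0383) missed it in 5, those without Kit+D replicate 1 or 2, Kit-D replicate 2 or 3 or Kit+ replicate 1 (adjusted p between 0.0502 and 0.168). Sema6b measured 5.91, 6.28 and 6.08 in Kit+J, 5.48, 5.24 and 5.58 in Kit+D, 6.26 and 6.64 in Kit-J, 6.46, 6.26 and 6.57 in Kit-D, 5.69, 5.80 and 6.32 in Kit+ and 6.35, 6.63 and 6.33 in Kit-. The 3 Kit+D arrays were the lowest of all 17, and Sema6b fell by 1.0 in Kit+D against Kit-D cells (SE 0.18, adjusted p = 0.00267). The other 5 membrane semaphorins, Sema4a, Sema4f, Sema5b, Sema6c and Sema7a, were called in none of the 9 comparisons, with log2 fold changes between -1.24 and 0.53. The lowest of these was that of Sema7a in Kit-J against Kit-D cells (adjusted p = 0.0535), which passed the threshold in 5 of the 17 fits that left out 1 array, those without Kit-D replicate 1 or 2, Kit+D replicate 1 or 3 or Kit+J replicate 2 (adjusted p between 0.0421 and 0.0465). Without the 3 OP9-Dll4 arrays that stood apart Sema7a was also called in Kit+ against Kit- (-1.05, adjusted p = 0.0111) and in Kit-J against Kit- cells (-0.99, adjusted p = 0.0426).

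Flrt3, which binds Unc5b among other partners, measured 6.35, 5.72 and 6.35 in Kit+J, 5.87, 5.58 and 5.64 in Kit+D, 6.16 and 6.25 in Kit-J, 6.35, 6.69 and 7.05 in Kit-D, 6.54, 6.35 and 6.10 in Kit+ and 6.85, 6.40 and 6.43 in Kit-. All Kit+D arrays lay below all Kit-D arrays, with a change of -1.0 (SE 0.21, adjusted p = 0.00673), and Flrt3 was called in no other comparison. Flrt1 was called in none, with log2 fold changes between -0.38 and 0.33. Of the Unc5 receptors, Unc5b, the one known from endothelium, measured 5.04, 5.46 and 4.90 in Kit+J, 4.77, 5.47 and 4.85 in Kit+D, 5.52 and 5.62 in Kit-J, 5.71, 5.74 and 6.31 in Kit-D, 4.87, 4.96 and 5.09 in Kit+ and 6.13, 6.42 and 6.28 in Kit-. The Kit- arrays and Kit-D replicate 3 were the highest, and the Kit-J arrays lay between the Kit- arrays and the 3 Kit+ groups. Unc5b fell by 1.30 in Kit+ against Kit- cells (SE 0.21, adjusted p = 0.00163) and fell by 0.89 in Kit+D against Kit-D cells (SE 0.21, adjusted p = 0.0118, or 0.0626 without Kit-D replicate 3). Without the 3 OP9-Dll4 arrays that stood apart the change in Unc5b there was -0.26 (adjusted p = 0.572). Unc5c measured 4.59, 5.20 and 4.87 in Kit+J, 4.60, 5.22 and 4.76 in Kit+D, 5.01 and 4.96 in Kit-J, 5.05, 5.72 and 5.22 in Kit-D, 4.63, 4.81 and 4.89 in Kit+ and 5.50, 5.93 and 5.97 in Kit-. It fell by 1.02 in Kit+ against Kit- cells (SE 0.21, adjusted p = 0.0137), with no overlap between those groups, and missed the threshold without Kit- replicate 2, Kit- replicate 3 or Kit+ replicate 1 (adjusted p between 0.0658 and 0.0703). Unc5a and Unc5d were called in no comparison, with log2 fold changes between -0.57 and 0.61. Unc5a was called at 0.96 in Kit-J against Kit-D cells without Kit-J replicate 2 (adjusted p = 0.0139).

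Of the 14 secreted cues, class 3 semaphorins, Slits and netrins, Sema3a and Slit3 were called in a comparison. Sema3a, which signals through Nrp1 with class A plexins, measured 5.23, 4.91 and 4.68 in Kit+J, 5.0, 4.38 and 5.01 in Kit+D, 5.14 and 5.16 in Kit-J, 5.22, 6.70 and 6.02 in Kit-D, 5.09, 5.04 and 4.80 in Kit+ and 5.77, 5.44 and 6.40 in Kit-. Kit-D replicate 2 was the highest array, and the Kit+D arrays lay below all Kit-D arrays. Sema3a changed by -1.18 (SE 0.32, adjusted p = 0.0242) in Kit+D against Kit-D cells, the only call among the 7 class 3 genes, and missed the threshold without Kit+D replicate 2, Kit-D replicate 2 or Kit-D replicate 3 (adjusted p between 0.0717 and 0.113). The other 6, among them the Plxnd1 ligand Sema3e, had log2 fold changes between -0.56 and 0.61 and a smallest adjusted p of 0.0744. This was that of Sema3g in Kit+ against Kit- cells, which passed without Kit+J replicate 2 (adjusted p = 0.0194). Slit3, a ligand of Robo1, measured 5.32, 5.25 and 5.39 in Kit+J, 4.92, 5.83 and 5.60 in Kit+D, 5.62 and 5.36 in Kit-J, 5.83, 6.69 and 6.21 in Kit-D, 5.43, 5.55 and 5.03 in Kit+ and 6.14, 5.67 and 5.92 in Kit-. Its Kit+D and Kit-D arrays touched at 5.83, and its change of -0.80 (SE 0.25, adjusted p = 0.0453) passed the threshold in 3 of the 17 fits that left out 1 array: those without Kit+D replicate 2, Kit-D replicate 1 or Kit+ replicate 3 (adjusted p in the others between 0.0502 and 0.192). Without the 3 OP9-Dll4 arrays that stood apart it was -0.43 (adjusted p = 0.493). Slit1 and Slit2 were called in no comparison (-0.60 to 0.60). Slit1 passed the threshold in Kit-J against Kit-D cells without Kit+J replicate 2 (adjusted p = 0.0432). None of the 4 netrins was called, with a smallest adjusted p of 0.132 and log2 fold changes between -0.43 and 0.49. The netrin with the widest range of group means was Ntn3, a ligand of the Dcc and Unc5 families, which measured 5.37, 5.85 and 5.27 in Kit+J, 5.22, 4.68 and 5.12 in Kit+D, 5.61 and 5.20 in Kit-J, 5.53, 5.36 and 5.40 in Kit-D, 5.39, 5.39 and 5.39 in Kit+ and 5.48, 5.29 and 5.52 in Kit-. Its lowest array was Kit+D replicate 2, and the other groups overlapped. In all, 21 of the 47 genes were called in at least 1 of the 9 comparisons and 26 in none. Over all genes, 19.4% were called in at least 1.

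Of 49 further genes of the same pathways, neuropilins, other receptors, further cues and cytoplasmic effectors, 9 were called lower (1.89% of all genes) and none higher in Kit-J against Kit- cells, and 17 lower (6.07% of all genes) and 2 higher (3.3%) in Kit-J against Kit-D cells. In Kit+ against Kit- cells 11 were lower (2.67% of all genes) and none higher, and in Kit+D against Kit-D cells 17 were lower (6.62%) and none higher, where 6.5% of all genes were higher. Nrp1, with Nrp2 a co-receptor of class 3 semaphorins, had the smallest adjusted p of the 49 genes in each of these comparisons. The genes named here are those called in Kit-J against Kit- cells, and those called only in other comparisons are counted and not named. Nrp1 fell by 2.49 in Kit-J against Kit- cells (SE 0.21, adjusted p = 3.72e-05), it fell by 2.30 in Kit-J against Kit-D cells (SE 0.21, adjusted p = 2.19e-05) and it fell by 4.07 in Kit+ against Kit- cells (SE 0.19, adjusted p = 3.67e-08). Nrp2 fell by 1.77 in Kit-J against Kit- cells (SE 0.33, adjusted p = 0.0103) and fell by 3.14 in Kit+ against Kit- cells (SE 0.30, adjusted p = 1.76e-05). Both were higher in Kit+D than in fresh Kit+ cells, Nrp1 by 1.59 (adjusted p = 0.00282) and Nrp2 by 1.43 (adjusted p = 0.0336), in the comparison where Plxnd1 was higher. The other 7 called in Kit-J against Kit- cells were the collapsin response mediators Dpysl3 (-1.25), Dpysl2 (-1.48) and Crmp1 (-1.01), the integrin subunits Itgb1 (-0.91) and Itga1 (-1.58), which bind Sema7a, the Slit-Robo GTPase-activating protein Srgap2 (-1.16) and the Rac exchange factor Farp1 (-1.45), with adjusted p between 0.0039 and 0.0373.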

How the data were processed

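RNA of about the same small amount per sort was amplified and hybridised to GeneChip Mouse Gene 1.0 ST arrays, 17 in all. The authors deposited 1 log2 value per probe set and array, normalised with RMA (version not given in the sources used here). Precision is limited by the 2 or 3 arrays of a group. The arrays of a group are independent sorts of pooled embryos according to the study's methods. The p-values rest on the spread between arrays within groups, estimated per gene over all groups together and moderated by limma.

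Of 34760 probe sets, 21640 had 1 gene symbol, 1321 had several and 11799 none, and only the first were named. The probe set with the highest mean stood for a gene, and Sema4d and Unc5d were the guidance genes with more than 1. All 47 symbols matched RefSeq by gene identifier. Group means of all 17 arrays were fitted in 1 model by limma (version 3.58.1, under R version 4.3.3), 9 comparisons and 2 tests of a difference between changes were made, and p-values were adjusted by Benjamini-Hochberg over 19937 genes. The fit was tested on simulated data. The guidance genes and all lists were chosen with earlier results of these data known. Values on every array are given for each guidance gene called in any of the 9 comparisons and, for a class with none, the one with the widest range of group means. The other pathway genes named with their changes are those called in Kit-J against Kit- cells.

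Alternatives were fits of the compared groups or cultured arrays alone, another variance model, a filter on dim genes, scaling to 7 housekeeping genes, a further quantile normalisation, weights for arrays, averaged probe sets per gene, a minimum log2 change of 1, replicate blocks, and each array, or 3 OP9-Dll4 arrays, left out. Kit+D and Kit-D arrays that share a number shifted together over all genes (r = 0.46, 0.18 and 0.29). Between arrays of unequal number r ran from -0.38 to 0.13. The numbers were taken as pairs only in the alternatives with replicate blocks, and the main fit held no such term.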

Additional observations from a re-analysis of the deposited data

Results flagged for a closer look

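A difference of a change between the Kit populations was called for 6 guidance genes, each tested in limma as a difference of differences over all genes. For the change with OP9-Jag1 culture in Kit- cells less that in Kit+ cells, the values were -3.62 for Sema6a, -3.50 for Flrt2, -3.32 for Sema6d, -2.71 for Robo1 and -2.28 for Plxnd1. In this test 0.557% of all genes were called lower, and the Robo1 call was lost in 12 of the 17 fits without 1 array. For the difference between OP9-Jag1 and OP9-Dll4 in Kit- cells less that in Kit+ cells, the values were -3.26 for Sema6a, -3.0 for Flrt2, -2.88 for Sema6d, -2.75 for Robo1 and -1.22 for Plxna4. There 1.36% of all genes were called lower. Of the 17 such fits, the Plxna4 call was lost in 8, the Robo1 call in 3 and the Flrt2 call in 2. For Sema6a each Kit+J array lay above each Kit+ array, by 1.36 in the mean (adjusted p = 0.0835), while both Kit-J arrays lay below all Kit- arrays. No group held the 4 arrays that a test for a single deviating array needs, so none was made.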

How the results depend on the processing

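No called change turned its direction. Of 61 calls, all held with the other variance model, with dim genes left out and with averaged probe sets, 58 with quantile normalisation, 56 with array weights, 52 with a minimum log2 change of 1, 50 with housekeeping scaling, 48 with the compared groups alone and 46 when Kit+D replicates 1 and 3 and the third Kit-D array were left out. For Kit+D against Kit+ (1 reported) the count was 0 with the compared groups alone, 2 with housekeeping scaling, 4 with array weights and 2 with the fixed replicate block. For Kit+J against Kit+D (1 reported) it was 0 with the compared groups alone, housekeeping scaling, quantile normalisation, the minimum change, the 3 OP9-Dll4 arrays left out or the cultured arrays alone. For the difference between stromas by Kit population (5 reported) it was 2 with the compared groups alone, which are the cultured arrays alone, 3 with housekeeping scaling, 3 with array weights and 2 without the 3 arrays. Housekeeping scaling left 5 for Kit-J against Kit- (8 reported). Array weights gave 1 for Kit-D against Kit- and 1 for Kit+J against Kit+ (0 reported), with 1 for Kit+J against Kit+ also without the 3 arrays. Without these the count for Kit+D against Kit-D (18 reported) was 9, all lower: 8 of the 18 and Plxnb2. The cause was not tested. Housekeeping scaling moved the median of all genes by over 0.1 in 6 comparisons or tests, by 0.25 in Kit+D against Kit+.

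Leaving out each array in turn gave 9 to 14 for Kit+ against Kit-, 4 to 8 for Kit-J against Kit-, 0 to 1 for Kit-D against Kit-, 7 to 13 for Kit-J against Kit-D, 0 to 1 for Kit+J against Kit+, 1 to 3 for Kit+D against Kit+, 0 to 3 for Kit+J against Kit+D, 0 for Kit+J against Kit-J, 13 to 18 for Kit+D against Kit-D, 2 to 6 for the stromas by Kit population, 4 to 7 for OP9-Jag1 culture by Kit population, and 11 to 13 genes without overlap.

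With the fixed replicate block 54 of the 61 calls held, those lost being Sema5a in Kit+ against Kit- and in Kit+D against Kit-D, Slit3 in the last, Robo4 in Kit-J against Kit-, Sema4g in Kit-J against Kit-D, Plxnd1 in Kit+J against Kit+D and Plxna4 in the stromas by Kit population (adjusted p between 0.0552 and 0.0821), and with the random block 58. The paired fit of the OP9-Dll4 arrays, chosen after seeing the data, kept 14 of the 18 Kit+D against Kit-D calls. In the other settings same-numbered arrays did not deviate together (r = -0.11 and -0.26 after OP9-Jag1, and 0.0064, 0.032 and 0.065 in fresh cells).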
